A study of Mus musculus with 12 samples.

Results

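The Cyp2c genes of mouse liver were described over 4 groups of mice. Listed by symbol, 10 genes were followed (Cyp2c29, Cyp2c38, Cyp2c37, Cyp2c50, Cyp2c54, Cyp2c53-ps, Cyp2c55, Cyp2c67, Cyp2c70 and Cyp2c44), of 51912 genes in the count table, where 6 further symbols began with Cyp2c. The rule was a list of names with no threshold on a measured value, but the list was drawn up with earlier results of these data known. The edgeR filter on low counts kept 8594 genes, among them all 10 listed genes and 3 of the 6 others. Cyp2c55 and Cyp2c53-ps had at most 5 counts in any library outside hCAR/hPXR mice and passed the filter through that group.

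Livers came from 12 adult male mice, 3 per group. WT mice carried mouse Car (Nr1i3) and mouse Pxr (Nr1i2). In hCAR/hPXR mice both receptors were replaced by the human CAR and PXR, and Car KO/hPXR mice lacked Car and held human PXR in place of mouse Pxr, so both modified lines were without mouse Car and mouse Pxr. These lines were made on a C57BL/6NTac background. CITCO, a compound known as an activator of human CAR, was injected intraperitoneally at 10 mg/kg on each of 4 days in mice of all 3 genotypes. Corn oil was given to a further WT group, and livers were collected on day 5. The paper cites work, mainly in cell lines, which proposes that CITCO also activates human PXR, the receptor that both modified lines carry. No corn oil group of either modified line was analysed here, so for those lines an effect of CITCO and an effect of the altered receptors cannot be told apart. Comparing the modified lines, which both held human PXR, asks how far each Cyp2c gene differed with the presence of human CAR. Against WT CITCO mice, CAR and PXR differed together, so their parts cannot be told apart there. The WT pair asks whether CITCO moved these genes in mice with the mouse receptors.

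CYP2C enzymes are haem monooxygenases of the endoplasmic reticulum that take electrons from P450 oxidoreductase and oxidise drugs, steroids, retinoids and polyunsaturated fatty acids. In rodents the subfamily grew by tandem duplication, so that many near copies lie side by side, some with distinct substrates and sites of expression. CAR and PXR are nuclear receptors that pair with the retinoid X receptor on repeats of hexamer motifs related to AGGTCA, and several Cyp2c genes are known targets of both.

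On GRCm38 (GENCODE annotation) 9 of the genes lay in a cluster of 1180.3 kb on chromosome 19, from Cyp2c55 at 39007019 to 39042693 to Cyp2c70 at 40153353 to 40187333. In order these were Cyp2c55, Cyp2c53-ps (39229254 to 39274985), Cyp2c29 (39269405 to 39330713), Cyp2c38 (39389556 to 39463075), Cyp2c67 (39608842 to 39649051), Cyp2c37 (39992424 to 40012243), Cyp2c54 (40037940 to 40073827), Cyp2c50 (40089688 to 40113950) and Cyp2c70. Cyp2c44 lay 3817.7 kb beyond, at 44005022 to 44029208; the annotation calls it Cyp2c23, and it was joined by its identifier ENSMUSG00000025197. The gene bodies of Cyp2c53-ps, an annotated transcribed pseudogene, and Cyp2c29 overlapped on the same strand by 5581 bases. Of 3 annotated Cyp2c29 transcripts, 1 began inside the pseudogene and shared 142 exonic bases with it.

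The copies differed in how far their reads could be told apart. Coding identity was 89.1% between Cyp2c29 and Cyp2c38, 96.1% between Cyp2c37 and Cyp2c50, and 95.2% between Cyp2c50 and Cyp2c54. Reads came from transcript 3′ ends, and there the picture changed: the last 300 bases of Cyp2c29 and Cyp2c38 were 48.4% identical with no 50-base stretch in common with any other Cyp2c transcript, while those of Cyp2c37 and Cyp2c50 were 93.7% identical. Cyp2c67 shared 45.4% of the 50-base stretches of its last 300 bases with another Cyp2c gene, Cyp2c40 most of all, against 13.5% for Cyp2c54, 10.4% for Cyp2c53-ps (with Cyp2c29), 10.0% for Cyp2c50 and 3.6% for Cyp2c37. The expected counts of Cyp2c55, Cyp2c53-ps, Cyp2c70 and Cyp2c44 were whole numbers in 12 of 12 libraries, to within 0.005, which is what reads with 1 possible source give. Those of Cyp2c50, Cyp2c54 and Cyp2c67 were whole in 0 libraries, those of Cyp2c37 and Cyp2c38 in 1, and those of Cyp2c29 in 3. Single values of these genes are therefore uncertain, to differing degrees, and sums over relatives are given beside them.

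Promoters (250 bases before the RefSeq start, GRCm38.p6) were given for 7 of the 10 genes, the others being Cyp2c54, Cyp2c53-ps and Cyp2c44. Of these 7, 5 are shown because the results turn on them: Cyp2c29 and its relative Cyp2c38, which moved in opposite directions between the modified lines; Cyp2c37 and Cyp2c50, which moved together; and Cyp2c55, which was near 0 outside 1 group. Sequences run 5′ to 3′ on the gene's own strand, and capitals mark AGGTCA or AGTTCA on either strand.
Cyp2c29, chr19:39286835-39287084, plus strand: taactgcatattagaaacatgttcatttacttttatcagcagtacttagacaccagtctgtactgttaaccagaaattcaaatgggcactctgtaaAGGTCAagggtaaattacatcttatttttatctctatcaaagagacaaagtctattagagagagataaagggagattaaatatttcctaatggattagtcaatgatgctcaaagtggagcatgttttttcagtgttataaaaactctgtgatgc
Cyp2c38, chr19:39463076-39463325, minus strand: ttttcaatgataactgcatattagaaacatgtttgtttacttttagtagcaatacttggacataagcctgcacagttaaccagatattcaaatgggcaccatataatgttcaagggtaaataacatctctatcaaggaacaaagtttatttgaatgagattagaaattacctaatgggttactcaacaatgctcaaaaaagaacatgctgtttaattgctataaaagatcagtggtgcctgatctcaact
Cyp2c37, chr19:39992174-39992423, plus strand: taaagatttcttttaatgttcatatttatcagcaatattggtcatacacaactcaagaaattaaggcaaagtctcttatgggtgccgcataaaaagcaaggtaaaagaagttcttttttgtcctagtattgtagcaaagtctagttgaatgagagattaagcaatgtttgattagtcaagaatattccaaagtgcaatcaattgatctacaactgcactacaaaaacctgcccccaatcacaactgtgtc
Cyp2c50, chr19:40089429-40089678, plus strand: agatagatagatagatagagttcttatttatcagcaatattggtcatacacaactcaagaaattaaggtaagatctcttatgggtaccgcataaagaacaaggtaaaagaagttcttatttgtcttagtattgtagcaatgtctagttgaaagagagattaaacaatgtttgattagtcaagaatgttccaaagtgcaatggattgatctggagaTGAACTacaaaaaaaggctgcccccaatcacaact
Cyp2c55, chr19:39006769-39007018, plus strand: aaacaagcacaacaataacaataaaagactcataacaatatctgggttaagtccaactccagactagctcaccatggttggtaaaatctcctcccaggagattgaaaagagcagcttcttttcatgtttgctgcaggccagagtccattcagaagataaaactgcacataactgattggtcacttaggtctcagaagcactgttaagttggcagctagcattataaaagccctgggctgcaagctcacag

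Cyp2c29 held AGGTCA 154 bases before its start. In the alignment with Cyp2c38 (68.8% identical over the window) that motif differed by A1T and G3T, counting from 1 at its 5′ end. The windows of Cyp2c37 and Cyp2c50 were 84.3% identical, and Cyp2c50 held the reverse complement of AGTTCA 35 bases before its start, whereas no copy of either motif was found for Cyp2c37. Cyp2c70 held AGGTCA 74 bases before its start. Both motifs are common: AGGTCA was in 14% and AGTTCA in 11.8% of 32851 mouse promoter windows of the same length, searched on both strands. A pair of either motif in the same direction with 4 bases between them was found in 0 of the 14 Cyp2c windows and 0.0244% of all windows. These matches describe letters in a short window and say nothing of binding.

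Levels are given as CPM (expected counts relative to the TMM-scaled library size), and each library is named by its replicate number. Libraries held 1167027 to 2341572 counts, and the floor of 3 counts per library came to a mean of 1.76 to 2.29 CPM in the groups outside hCAR/hPXR. With 1 read per transcript end and shared ends, levels are compared between groups for a gene and not between genes. Of the markers checked, the 6 hepatocyte markers summed to 22377 to 36879 CPM and none was called in any comparison, while of 4 intestinal markers Vil1 and Cdx1 were at 0 in all 12 libraries, Lgals4 was at 0 to 6.91 CPM and Fabp2 at 28.3 to 61.2 CPM, with none called. Mouse Nr1i3 was at 80.2 to 146 CPM in WT CITCO libraries and at 0 to 5.0 CPM in hCAR/hPXR, and mouse Nr1i2 at 74.0 to 88.6 CPM against 0 to 0.579 CPM, as the genotypes name them. Calls required both a fold change over 1.5 and an adjusted p (Benjamini-Hochberg, over all 8594 genes) under 0.05 in edgeR's quasi-likelihood test. p-values measure the spread among these mice, an exact permutation test of 3 against 3 libraries could not go below 0.1, and in bulk liver fewer cells of a type and less RNA per cell cannot be told apart. The share of all genes whose libraries do not overlap between groups was not counted, so such gaps add nothing to the tests.

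**Figure D1:**
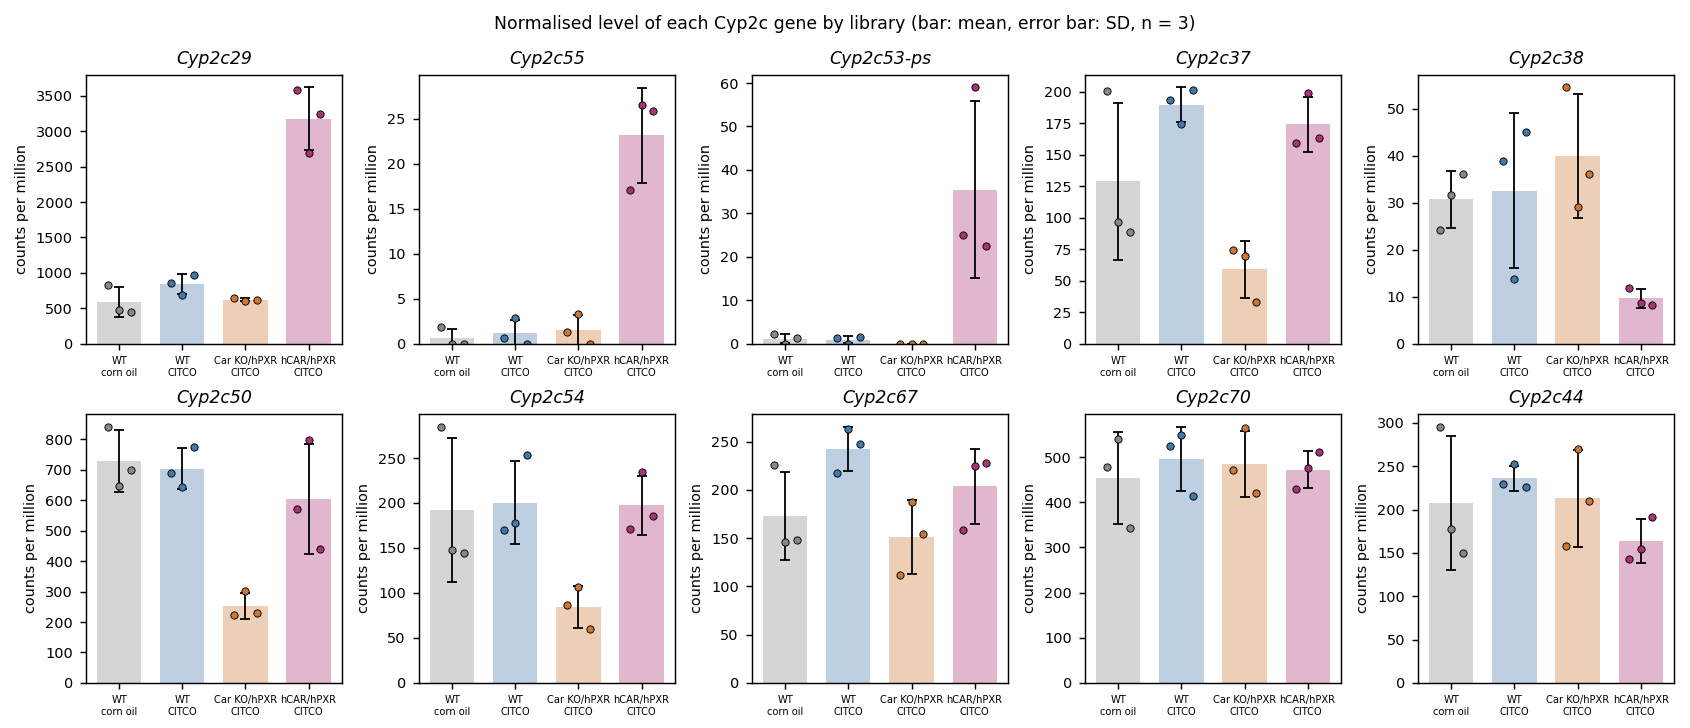
Normalised level (CPM, linear axis from 0) of the 10 Cyp2c genes in each library of the 4 groups; points are libraries, bars means and error bars SD (n = 3). Cyp2c29, Cyp2c55 and Cyp2c53-ps stand highest in hCAR/hPXR CITCO, Cyp2c38 lowest there, and Cyp2c37, Cyp2c50 and Cyp2c54 lowest in Car KO/hPXR CITCO, whereas Cyp2c70 is level at 454 to 496 on average.

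Across the 4 groups together, 7 of the 10 genes differed (adjusted p under 0.05, edgeR quasi-likelihood F test), against 1.42% of all genes tested. These were Cyp2c29, Cyp2c37, Cyp2c38, Cyp2c50, Cyp2c53-ps, Cyp2c54 and Cyp2c55. Cyp2c67 (adjusted p = 0.337), Cyp2c44 (0.62) and Cyp2c70 (0.969) did not pass the same edgeR test. Without Car KO/hPXR replicate 3 the count was 4 of 10, while over all genes it went from 122 of 8594 to 83 of 9079. Cyp2c55 and Cyp2c53-ps entered the test only through the group where they are high, so the count set against all genes is best read without them, as 5 of 8. The genes that differed are described first, by the group in which they stood apart, and the other 3 after them.

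The first comparison, hCAR/hPXR against WT mice given CITCO, showed 3 genes higher and none lower of 10 (0.256% of all genes were called higher, and 0.407% either way). These were Cyp2c29, Cyp2c55 and Cyp2c53-ps, of which the last 2 passed the low-count filter through hCAR/hPXR alone and had to be high there if tested. Without them 1 of 8 genes was called. The median log2 fold change of the 10 genes was -0.10, beside 0.013 over all genes, so the rise lay in single genes and not across the subfamily. The 3 genes lie within 323.7 kb at one end of the cluster, with Cyp2c65 and Cyp2c66 among them, and the next listed gene, Cyp2c38, lies 58.8 kb beyond Cyp2c29.

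Cyp2c29 encodes an enzyme known to epoxidise arachidonic acid and to oxidise retinoids and aldehydes, and it is a known target of CAR. In hCAR/hPXR CITCO livers it was at 3582, 2699 and 3244 CPM, in WT CITCO livers at 850, 689 and 968, in Car KO/hPXR CITCO livers at 647, 601 and 609, and in WT corn oil livers at 825, 475 and 446. All 3 hCAR/hPXR libraries lay above the other 9, the lowest at 2699 CPM against 968 CPM for the highest of the others. Cyp2c29 was 3.80-fold higher in hCAR/hPXR than in WT CITCO mice (log2 fold change 1.93 ± 0.22 SE, adjusted p = 0.000149 by edgeR). The order of the means was hCAR/hPXR CITCO (3175 ± 445, SD, n = 3), WT CITCO (836 ± 140), Car KO/hPXR CITCO (619 ± 24.3) and WT corn oil (582 ± 211). Of the neighbours in that order below hCAR/hPXR, WT CITCO against Car KO/hPXR did not pass (edgeR adjusted p = 0.55). All 3 Car KO/hPXR libraries were below all 3 of WT CITCO. Car KO/hPXR against WT corn oil was not tested.

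Expressed as a share of the reads assigned to the 16 Cyp2c symbols, Cyp2c29 took 18.9 to 23.1% in WT corn oil, 22.2 to 27.2% in WT CITCO and 24.0 to 31.5% in Car KO/hPXR CITCO libraries, and 53 to 66.0% in hCAR/hPXR CITCO libraries. The summed counts of all Cyp2c genes were 5253 ± 167 CPM in hCAR/hPXR and 3316 ± 228 CPM in WT CITCO mice (SD, n = 3), a log2 fold change of 0.66 ± 0.19 (SE) that edgeR did not call (adjusted p = 0.207) and DESeq2 did (0.00415). Set against Cyp2c70, whose level was steady, there were 6.79 ± 1.39 Cyp2c29 reads for each Cyp2c70 read in hCAR/hPXR and 1.74 ± 0.55 in WT CITCO livers (SD, n = 3).

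Cyp2c55, which hydroxylates arachidonic acid and is best known from the gut, was near the floor in all groups but 1. It had 33, 46 and 31 counts in the hCAR/hPXR libraries (17.1, 26.6 and 25.9 CPM) and 0 to 4 counts in each of the other 9. Pooled over libraries, 110 counts in hCAR/hPXR stood against 5 in WT CITCO, a ratio of 20 with an exact 95% interval of 8.3 to 62.7 that covers counting error only. The edgeR test gave a log2 fold change of 4.25 ± 0.78 (SE) and an adjusted p of 0.0149. That call rested on few counts: it held when hCAR/hPXR replicate 1 or WT CITCO replicate 2 was left out (adjusted p down to 0.023) and not when any of the other 4 libraries was, with adjusted p up to 0.109 without WT CITCO replicate 1. Of its neighbours, Cyp2c66 had 3, 0 and 3 counts in hCAR/hPXR and 0 elsewhere, and Cyp2c65 had 0 counts in all 12 libraries; neither could be tested.

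Cyp2c53-ps, the pseudogene beside Cyp2c29, followed the same pattern. Its counts were 48, 102 and 27 in hCAR/hPXR (24.9, 59.0 and 22.5 CPM), 2, 0 and 2 in WT CITCO, 5, 0 and 2 in WT corn oil, and 0 in all 3 Car KO/hPXR libraries. Replicate 2 of hCAR/hPXR stood above the other 2 of its group here, while for Cyp2c29 it was the lowest of them. The pooled ratio of hCAR/hPXR to WT CITCO was 40.2 (exact 95% interval 15.4 to 149), and edgeR gave a log2 fold change of 5.18 ± 0.70 (SE, adjusted p = 0.00136), called with each of the 6 libraries left out in turn. Against a floor of 3 counts in each Car KO/hPXR library hCAR/hPXR mice had at least 15.5-fold more of it. Whether reads of the Cyp2c29 transcript that begins inside this pseudogene were counted to it was not tested.

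DESeq2, the test the study used, called Cyp2c29 in this comparison and gave no adjusted p for Cyp2c55 (unadjusted p = 2.6e-06), Cyp2c53-ps (1.35e-08) or Cyp2c38 (5.23e-05).

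Cyp2c38, the close relative of Cyp2c29 that also forms epoxides of arachidonic acid, ran the other way. It was at 11.9, 8.68 and 8.34 CPM in hCAR/hPXR livers, below all 9 other libraries, which spanned 13.8 to 54.6 CPM. Against WT CITCO (38.9, 13.8 and 45.0 CPM) the log2 fold change was -1.73 ± 0.38 (SE) and missed the threshold (edgeR adjusted p = 0.0624); without WT CITCO replicate 2, its lowest library, it was -2.11 and passed (0.00499). Against Car KO/hPXR (54.6, 29.2 and 36.1 CPM) it fell by 2.04 on the log2 scale (adjusted p = 0.0181), the 1 call in the lower direction among the 10 genes (0.279% of all genes). Only 10 to 23 counts stood behind each hCAR/hPXR value, and the call against Car KO/hPXR held without 1 of the 6 libraries, Car KO/hPXR replicate 2, and was lost without any other.

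Within each library there were 295 to 389 Cyp2c29 reads for each Cyp2c38 read in hCAR/hPXR mice, and 11.9 to 50.7 in the other 9 libraries. This ratio does not depend on how libraries were scaled. The sum of Cyp2c29, Cyp2c38 and the third relative Cyp2c39, which does not depend on how reads were divided among them, was 3.65-fold higher in hCAR/hPXR than in WT CITCO mice (log2 1.87 ± 0.22 SE, edgeR adjusted p = 0.000173).

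**Figure D2:**
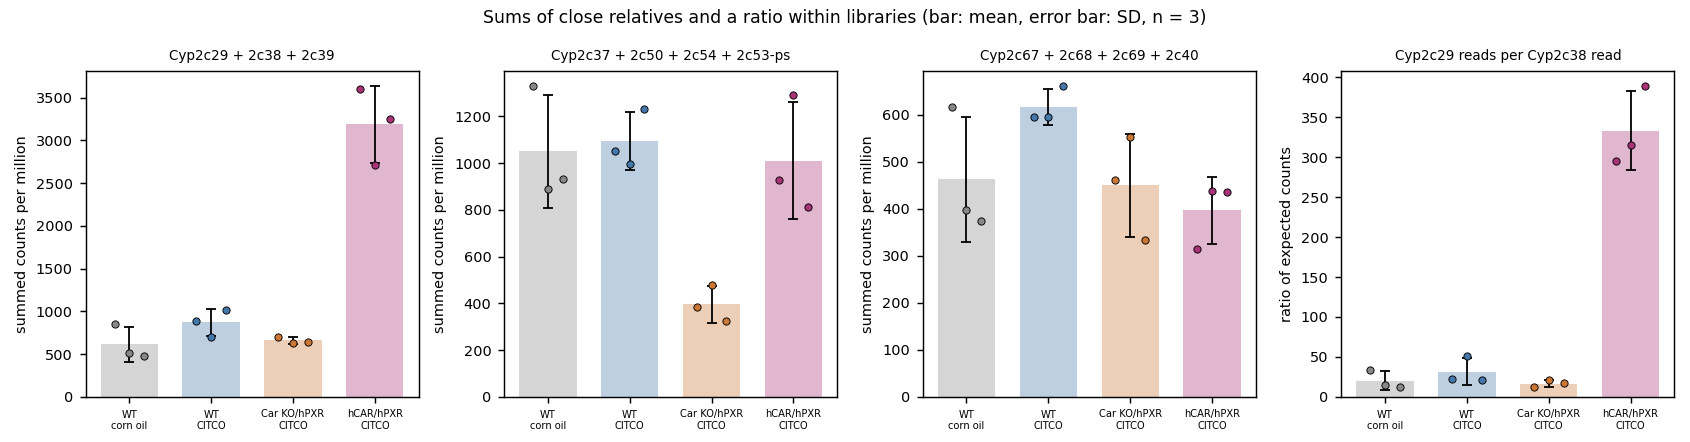
Summed CPM of 3 sets of Cyp2c genes in each library, and the ratio of Cyp2c29 to Cyp2c38 expected counts within each library (linear axes from 0, points are libraries, bars means, error bars SD, n = 3). The Cyp2c37 set holds Cyp2c53-ps beside Cyp2c37, Cyp2c50 and Cyp2c54. The Cyp2c29 set and the ratio stand apart in hCAR/hPXR CITCO, the Cyp2c37 set in Car KO/hPXR CITCO, and the Cyp2c67 set is at 595 to 661 CPM in WT CITCO, above both modified lines (315 to 554), without a call.

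The second pattern appeared in Car KO/hPXR against WT mice given CITCO, where 2 of 10 genes were called lower, Cyp2c37 and Cyp2c50, and none higher (0.0931% of all genes were called lower, and 0.256% either way). The median log2 fold change of the 10 was -0.56, also without Cyp2c55 and Cyp2c53-ps, which were at 0 to 4 counts in both groups, beside -0.00395 over all genes. The genes concerned, Cyp2c37, Cyp2c54 and Cyp2c50, are adjacent and span 121.5 kb. Their enzymes are known to oxidise arachidonic and linoleic acid.

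Cyp2c50 was at 224, 303 and 231 CPM in Car KO/hPXR livers, at 688, 645 and 777 in WT CITCO, at 842, 646 and 698 in WT corn oil and at 573, 799 and 440 in hCAR/hPXR. The Car KO/hPXR libraries were the lowest 3 of the 12, and the other groups overlapped. The level was 2.79-fold lower than in WT CITCO mice (log2 -1.48 ± 0.20 SE, edgeR adjusted p = 0.00201), called with each of the 6 libraries left out in turn.

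Cyp2c37 was at 74.3, 69.3 and 32.9 CPM in Car KO/hPXR and at 193, 174 and 201 CPM in WT CITCO livers. In hCAR/hPXR livers it was at 160, 199 and 163 CPM, and in WT corn oil livers at 201, 96.6 and 88.8 CPM. Again the Car KO/hPXR libraries were the lowest 3 of 12, 3.20-fold below WT CITCO (log2 -1.68 ± 0.29 SE, edgeR adjusted p = 0.0219). That call held without 3 of the 6 libraries and not without WT CITCO replicate 1 (adjusted p = 0.106) or 2 (0.0627) or Car KO/hPXR replicate 3 (0.0855).

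Cyp2c54 was at 87.0, 107 and 60.0 CPM in Car KO/hPXR and at 170, 178 and 253 CPM in WT CITCO livers, without overlap. Its log2 fold change of -1.24 ± 0.26 (SE) lay just outside the threshold (edgeR adjusted p = 0.0529), and DESeq2 called it (0.00119). In WT corn oil it was at 285, 148 and 144 CPM and in hCAR/hPXR at 171, 234 and 186 CPM.

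Since reads can be divided among these 3 genes in more than 1 way, their sum was fitted as well. The sum also held Cyp2c53-ps, whose own counts were whole numbers and which added 35.5 CPM on average in hCAR/hPXR and at most 1.15 CPM on average elsewhere. It was 396 ± 78.7 CPM in Car KO/hPXR, 1094 ± 123 in WT CITCO, 1051 ± 242 in WT corn oil and 1011 ± 250 in hCAR/hPXR mice (SD, n = 3). The fall against WT CITCO was 2.76-fold (log2 -1.47 ± 0.21 SE, edgeR adjusted p = 0.00302). Between hCAR/hPXR and WT CITCO the sum differed by -0.11 ± 0.21 on the log2 scale (adjusted p = 0.913). Per read of Cyp2c70, Cyp2c50 had 0.474 to 0.549 reads in Car KO/hPXR and 0.861 to 2.03 in the other 9 libraries.

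Cyp2c29 was not called in this comparison, and its 3 Car KO/hPXR libraries lay below those of WT CITCO. Its log2 fold change of -0.43 ± 0.22 (SE) in Car KO/hPXR against WT CITCO had a 95% interval of -0.89 to 0.02, while the interval of Cyp2c50 was -1.91 to -1.05. Whether the falls of the 2 genes differ was not tested. Cyp2c38 had 0.31 ± 0.34.

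**Figure D3:**
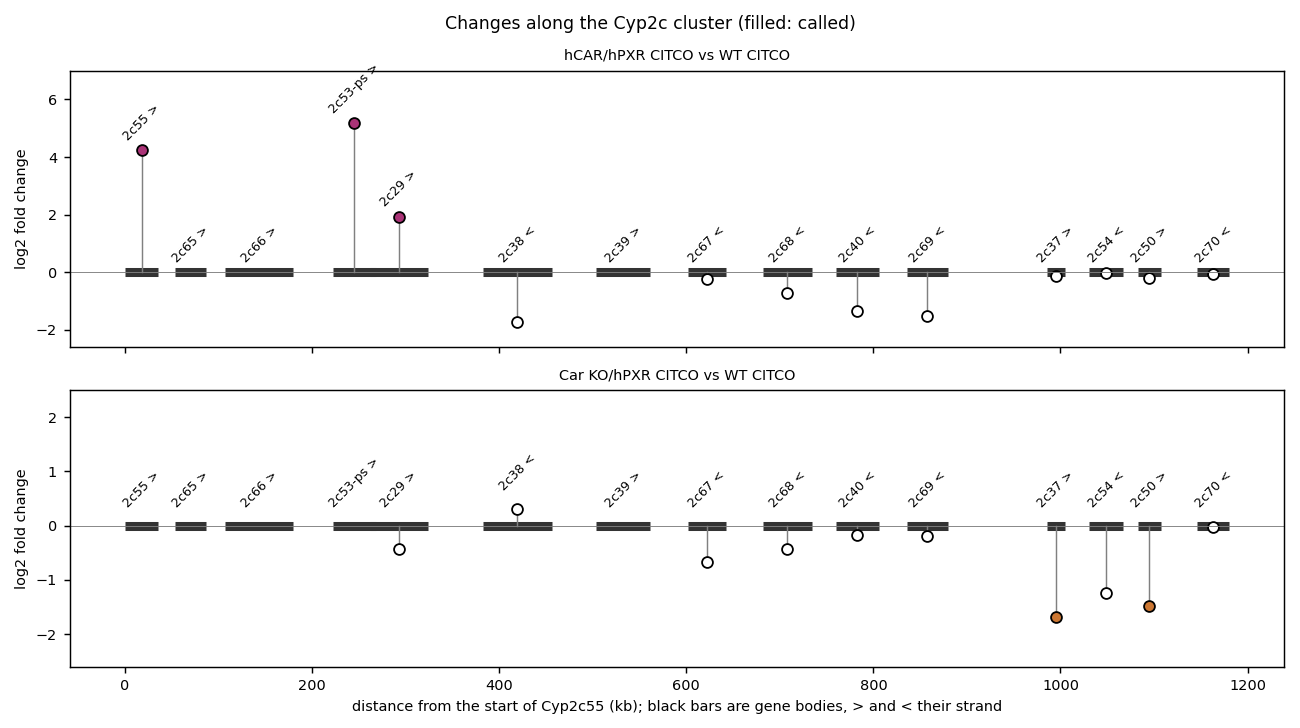
Log2 fold change against WT CITCO (linear axis) of the Cyp2c genes in hCAR/hPXR CITCO (above) and Car KO/hPXR CITCO (below), placed by distance in kb from the start of Cyp2c55; filled points are called and black bars are gene bodies. Genes shown without a point were not tested or had at most 4 counts per library in both groups. The called genes lie at the left end in the upper panel and, for Cyp2c37 and Cyp2c50, toward the right end in the lower one.

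The modified lines were then compared with each other. Both carry human PXR and received CITCO, and they differ in the presence of human CAR. Here 7 of the 10 genes were called (0.582% of all genes), 6 of them higher in hCAR/hPXR (0.303%) and Cyp2c38 lower. Without Cyp2c55 and Cyp2c53-ps, which were tested only through their level in hCAR/hPXR, 5 of 8 were called, 4 of them higher. The median log2 fold change was 1.24, also with Cyp2c53-ps at its bound, beside 0.0133 over all genes. Cyp2c29 was 5.13-fold higher (adjusted p = 1.77e-05), Cyp2c37 2.94-fold (0.0181), Cyp2c50 2.40-fold (0.00561), Cyp2c54 2.33-fold (0.0408) and Cyp2c55 14.6-fold (0.0242), all by edgeR, with Cyp2c53-ps higher by at least 15.5-fold. The libraries of the modified lines did not overlap for any of the 7 genes. The share of all genes without overlap was not counted, so this gap adds nothing beside the calls. The comparison shares its libraries with the 2 before it, so the values are set side by side and not counted as further evidence. Against WT CITCO, Cyp2c29 had log2 fold changes of 1.93 in hCAR/hPXR, which was called, and -0.43 in Car KO/hPXR, which was not. Cyp2c37 and Cyp2c50 had -0.12 and -0.22 in hCAR/hPXR, neither called, and -1.68 and -1.48 in Car KO/hPXR, both called. Cyp2c54 had -0.02 and -1.24, neither called.

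Only Cyp2c29 and Cyp2c53-ps were called in this comparison with each of the 6 libraries left out in turn. Without Car KO/hPXR replicate 3 they were the 2 genes still called, while calls over all genes fell from 50 of 8594 to 10 of 9079. Without another library that changed the count by more than 1.5 times, 3 were called (Car KO/hPXR replicate 1, hCAR/hPXR replicates 2 and 3) or 4 (hCAR/hPXR replicate 1).

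**Figure D4:**
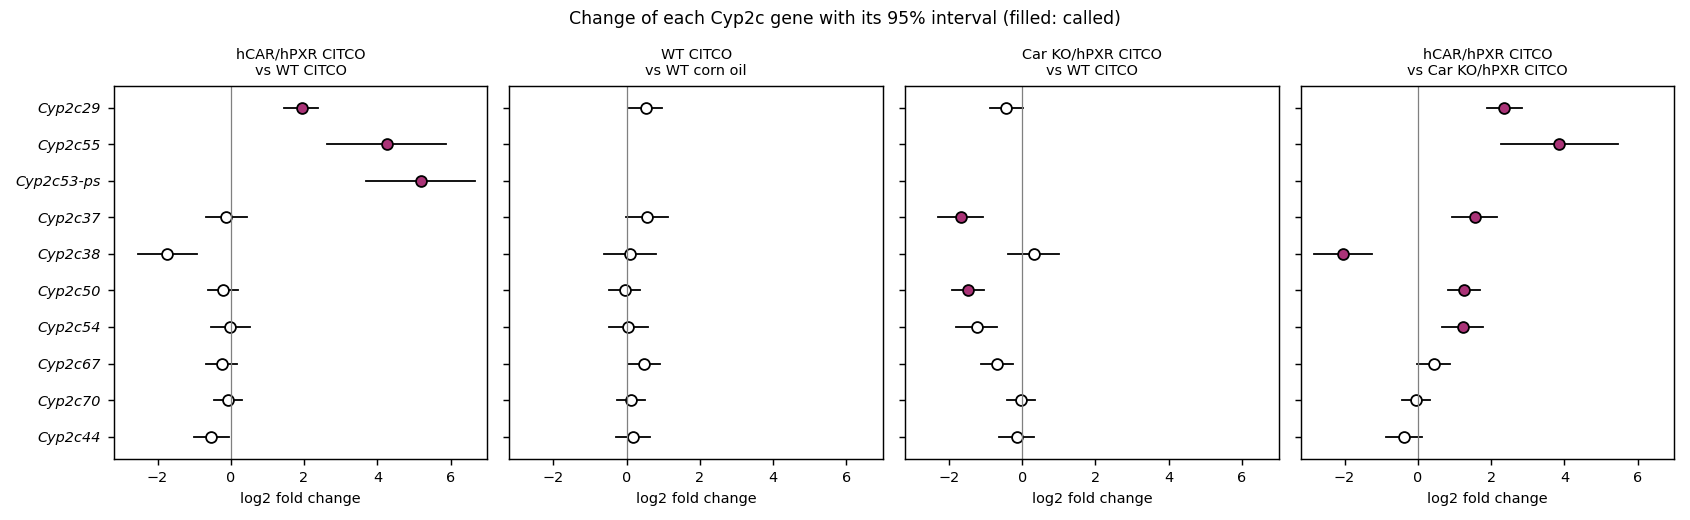
Log2 fold change of each Cyp2c gene with its 95% interval in the 4 comparisons; filled points are called. Pairs with at most 5 counts per library in both groups, and Cyp2c53-ps where Car KO/hPXR is at 0, are left out. In the second panel all intervals lie between -0.61 and 1.12 and none is called. In the first and last panels Cyp2c55 has a wide interval, 2.62 to 5.88 and 2.27 to 5.46.

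In WT mice CITCO moved no Cyp2c gene past the threshold. None of the 10 was called against corn oil (0.233% of all genes were), by edgeR or DESeq2, and 2 genes, Cyp2c29 and Cyp2c67, had an unadjusted p under 0.05 in edgeR. The log2 fold change of Cyp2c29 was 0.52 with a 95% interval of 0.07 to 0.97 (adjusted p = 0.465), so a rise of up to 1.96-fold is within the interval. Cyp2c67 had 0.48 ± 0.21 (SE, adjusted p = 0.497) and Cyp2c37 had 0.55 ± 0.27 (adjusted p = 0.569). The median of the 10 genes was 0.16, beside -0.000278 over all genes. The corn oil group was uneven: replicate 1 was the highest of its 3 libraries for 8 of the 10 genes, among them Cyp2c29 (825 against 475 and 446 CPM) and Cyp2c54 (285 against 148 and 144 CPM). Without that library Cyp2c29 had a log2 fold change of 0.86 and Cyp2c37 one of 1.04, neither called (lowest adjusted p 0.108 and 0.136 over all libraries left out).

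The remaining 3 genes were not called in any comparison. Cyp2c70, which makes muricholic acids from chenodeoxycholic acid in rodents, was at 454 ± 101 CPM in WT corn oil, 496 ± 71.8 in WT CITCO, 486 ± 73.2 in Car KO/hPXR and 472 ± 41.3 in hCAR/hPXR mice (SD, n = 3). Its log2 fold change was -0.07 in hCAR/hPXR against WT CITCO (95% interval -0.45 to 0.31) and -0.03 in Car KO/hPXR (-0.41 to 0.35), which as ratios ran from 0.732 to 1.24 and from 0.752 to 1.27. Its gene body lies 39.4 kb from that of Cyp2c50, which fell in Car KO/hPXR mice, and its counts were whole numbers in all 12 libraries.

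Cyp2c44, an epoxygenase outside the cluster, was at 143, 155 and 192 CPM in hCAR/hPXR and at 229, 252 and 227 CPM in WT CITCO livers. The groups did not overlap, but the log2 fold change of -0.54 ± 0.23 (SE) did not pass (edgeR adjusted p = 0.493). In Car KO/hPXR it was at 158, 270 and 210 CPM.

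Cyp2c67 was at 217, 263 and 248 CPM in WT CITCO, 112, 188 and 154 in Car KO/hPXR, 159, 225 and 228 in hCAR/hPXR and 226, 146 and 148 in WT corn oil. Its fall in Car KO/hPXR (log2 -0.68 ± 0.21 SE) did not pass (edgeR adjusted p = 0.228). This gene shares much of its transcript end with relatives that were not on the list, of which Cyp2c40 was at 42.7 ± 24.8 CPM in hCAR/hPXR and 110 ± 33.1 in WT CITCO (log2 -1.36 ± 0.40 SE, adjusted p = 0.22), Cyp2c68 at 135 ± 24.9 against 219 ± 30.4 (adjusted p = 0.184) and Cyp2c69 at 15.3 ± 11 against 44.3 ± 24.4 (0.468). None was called. The sum of the 4 genes had a log2 fold change of -0.64 ± 0.21 (SE) in hCAR/hPXR against WT CITCO (edgeR adjusted p = 0.294) and -0.46 ± 0.21 in Car KO/hPXR (0.517).

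The members' levels over the 12 libraries grouped in the same way, given as a description since the libraries share their groups. Pearson's r of log2 CPM was 0.90 between Cyp2c29 and Cyp2c55, 0.93 between Cyp2c29 and Cyp2c53-ps, and -0.79 between Cyp2c29 and Cyp2c38. It was 0.94 between Cyp2c37 and Cyp2c54, and 0.90 between Cyp2c50 and Cyp2c54, but 0.20 between Cyp2c29 and Cyp2c50. The r of Cyp2c55 and Cyp2c53-ps with Cyp2c29 had to be high, since both passed the low-count filter through hCAR/hPXR alone. The genes outside the list most like Cyp2c29 were Cyp2b10 (r = 0.963), Mt2 (0.933) and Ptp4a1 (0.922), and among those most like Cyp2c50 were Lrrfip2 (0.934) and Tomm40l (0.852).

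The wider set of P450 genes known to respond to CAR or PXR had 8 of 14 members tested. Of these, 4 were higher in hCAR/hPXR than in WT CITCO mice: Cyp2b10, the classical CAR target (log2 6.05 ± 0.40 SE, adjusted p = 4.75e-08), Cyp3a11 (2.02 ± 0.26, 0.000404), Cyp3a59 (2.43 ± 0.47, 0.0215) and Cyp3a25 (1.17 ± 0.21, 0.0113), by edgeR. In Car KO/hPXR against WT CITCO 0 of the 8 were called, and 6 of them had a positive log2 fold change and 2 a negative one (median 0.26). Cyp3a59 lay just outside the threshold there (2.25 ± 0.48 SE, edgeR adjusted p = 0.0529), with Cyp3a25 at 0.9 (0.0766) and Cyp3a11 at 0.99 (0.114). The difference from the Cyp2c genes was not tested. Between the modified lines Cyp2b10 alone of the 8 was called, so Cyp2c29 and Cyp2b10 were called in the same direction there and Cyp3a11 was not (log2 1.03, adjusted p = 0.0673).

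The partners of these enzymes were examined next. Of 8 genes for electron donors and haem supply, 0 were called in the 3 comparisons among CITCO groups. Por, which passes electrons to all microsomal P450s, was at 412, 494 and 325 CPM in hCAR/hPXR and 354, 241 and 286 CPM in WT CITCO livers, with overlap (log2 0.48, edgeR adjusted p = 0.365). Alas1, the first enzyme of haem synthesis, was higher in WT CITCO than in WT corn oil mice (log2 1.73 ± 0.32 SE, adjusted p = 0.0264). Of 7 genes that make or open fatty acid epoxides, 4 were tested and 0 called in any comparison.

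Of 11 bile acid genes beside Cyp2c70, 1 was called in hCAR/hPXR against WT CITCO, Cyp7a1, the rate-limiting enzyme of bile acid synthesis (log2 -1.59 ± 0.33 SE, adjusted p = 0.0376), and 10 of the 11 had a negative log2 fold change (median -0.19). In the other comparisons 0 were called. Among 14 receptors and hepatocyte factors tested, of 15 listed, 4 were lower in hCAR/hPXR than in WT CITCO: mouse Nr1i3 and Nr1i2, Onecut1 (log2 -2.04 ± 0.31 SE, adjusted p = 0.00262) and Foxa2 (-1.25 ± 0.22, 0.00961). Onecut1 and Foxa2 were also higher in WT CITCO than in WT corn oil mice (3.17 ± 0.34 with an adjusted p of 0.000195, and 1.12 ± 0.21 with 0.0292). WT CITCO is the group that the modified lines are set against. Between the modified lines, where WT CITCO plays no part, Foxa2 was called lower in hCAR/hPXR (log2 -1.1 ± 0.22 SE, edgeR adjusted p = 0.0242). Onecut1 was not called there (-0.66, 0.487). In Car KO/hPXR against WT CITCO neither was called (Foxa2 -0.14 with an edgeR adjusted p of 0.891, Onecut1 -1.38 with 0.0607). Rxra, the shared partner of CAR and PXR, and Hnf4a were not called in any comparison.

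The Cyp2c changes came with other differences between the groups. The 19 acute phase genes, which liver makes in inflammation, summed to 18853 to 39170 CPM in hCAR/hPXR, 12854 to 21221 in WT CITCO, 12847 to 15185 in Car KO/hPXR and 11103 to 12930 in WT corn oil libraries. In hCAR/hPXR against WT CITCO all 19 had a positive log2 fold change (median 1.01) and 2, Mt1 and Mt2, were called. In Car KO/hPXR against WT CITCO 17 were negative and 0 called. Between the modified lines all 19 were positive (median 1.32) and 6 were called, namely Saa2, Orm2, Hp, Steap4, Mt1 and Mt2. In WT CITCO against corn oil 15 were positive and Saa1 and Saa2 were called (24.2-fold and 28.7-fold, edgeR adjusted p = 0.0494 and 0.0264). Within WT CITCO the library with the lowest acute phase sum, replicate 3, had the highest Cyp2c29 (968 CPM). In hCAR/hPXR the order was the same for both, with sums of 39170, 28519 and 18853 CPM beside 3582, 3244 and 2699 CPM of Cyp2c29 in replicates 1, 3 and 2. The order was also the same in WT corn oil, while in Car KO/hPXR the highest sum (15185 CPM, replicate 2) went with the lowest Cyp2c29 (601 CPM). Pericentral markers, of the zone where many P450 genes are expressed, summed to 3193 to 5187 CPM in hCAR/hPXR, 4399 to 5272 in Car KO/hPXR and 4885 to 5772 in WT CITCO libraries, and periportal ones to 4816 to 5585, 5311 to 6443 and 4749 to 5614; none of the tested markers of either zone was called. Red blood cell markers had a negative log2 fold change in hCAR/hPXR against WT CITCO for 5 of 5 genes (median -0.54), with 0 called. The part of these differences in the Cyp2c results was not tested.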

How the data were processed

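Liver RNA of 12 mice was sequenced from transcript 3′ ends (Lexogen QuantSeq, Ion Torrent). Per the labels and the study's methods, reads were checked with FastQC 11.7, trimmed with Trimmomatic 36, aligned with STAR 2.5.2 to GRCm38 and quantified with RSEM 1.3. The authors deposited expected counts per gene, which RSEM divides among genes where a read has more than 1 source (13.79% of detected values were not whole numbers, to within 0.005), and a table of log2-scale variance-stabilised values that they made with DESeq2.

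Expected counts were rounded, genes filtered with filterByExpr, scaled by TMM and tested in edgeR 4.0.16 (R 4.3.3) by the quasi-likelihood F test, with 1 mean per group over all 12 libraries and Benjamini-Hochberg adjustment over 8594 genes. A call needed an adjusted p under 0.05 and a fold change over 1.5. Log2 CPM values for correlations and the permutation test used a prior count of 2. Fitted fold changes kept edgeR's default. The test was checked on simulated counts. Sums of relatives, with Cyp2c53-ps placed in the Cyp2c37 set, replaced their members in a second fit. Alternatives were DESeq2 1.42.0 (size factors; Wald and likelihood ratio tests), library totals, no filter, the 6 libraries of a comparison, a replicate block, each library left out, and limma 3.58.1 on the deposited log2 values. Exact intervals cover counting error only.

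The 10 genes and all lists were chosen with earlier results of these data known. Besides the 10 genes, up to 4 genes per fixed list are named, and the 3 genes most correlated with Cyp2c29 and with Cyp2c50, of which 1 is not reported here. Promoters were taken from RefSeq.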

Additional observations from a re-analysis of the deposited data

Results flagged for a closer look

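For 7 of the 10 genes the change against WT CITCO mice was not the same in the hCAR/hPXR as in the Car KO/hPXR line, by edgeR's test of the difference itself, which equals the comparison of the modified lines. On the log2 scale the difference was 2.36 for Cyp2c29, 3.86 for Cyp2c55, 1.55 for Cyp2c37, 1.26 for Cyp2c50, 1.22 for Cyp2c54 and -2.04 for Cyp2c38, and for Cyp2c53-ps the hCAR/hPXR level was higher by at least 15.5-fold. The WT libraries drop out of this difference. Over all genes 0.582% were called in it. Cyp2c55 and Cyp2c53-ps passed the low-count filter only through hCAR/hPXR, so the count set beside this share is best read without them, as above. Without Car KO/hPXR replicate 3 the count fell to 2 of 10, while calls over all genes fell from 50 of 8594 to 10 of 9079. Cyp2c55, Cyp2c38 and Cyp2c54 were each called with 1 of the 6 libraries left out and not with the other 5. Groups of 3 were too small to test single libraries for standing apart.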

How the results depend on the processing

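Of 507 single-gene values under the alternatives, 445 kept direction and call, 28 lost the call, 7 gained it and 27 changed sign, none of these a called value. DESeq2 called 1 gene in hCAR/hPXR against WT CITCO, since it gave no adjusted p for 3, and 2 sums in Car KO/hPXR against WT CITCO. With no filter 4 genes were called in Car KO/hPXR against WT CITCO. Under total counts Cyp2c54 turned to 0.02 (hCAR/hPXR against WT CITCO) and Cyp2c70 to 0.05 (Car KO/hPXR against WT CITCO).

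With each library left out, the genes called ran from 2 to 4 in hCAR/hPXR against WT CITCO, 1 to 2 in Car KO/hPXR against WT CITCO, 2 to 7 between the modified lines and 4 to 7 over 4 groups, and the sums from 1 to 2, 1 to 1 and 1 to 4 in the same order of comparisons. The log2 fold changes that changed sign ranged, in WT CITCO against corn oil, from -0.95 to 3.86 for Cyp2c55 and its sum, -0.91 to 0.44 for Cyp2c53-ps, -0.20 to 0.47 for Cyp2c38, -0.13 to 0.07 for Cyp2c50, -0.15 to 0.46 for Cyp2c54, -0.04 to 0.28 for Cyp2c70, -0.01 to 0.53 for Cyp2c44 and -0.04 to 0.27 for the Cyp2c37 set. In Car KO/hPXR against WT CITCO they ranged from -0.63 to 1.93 for Cyp2c55, to 1.92 for its sum, -0.06 to 0.60 for Cyp2c38, -0.15 to 0.06 for Cyp2c70 and -0.36 to 0.02 for Cyp2c44. Those of Cyp2c54 (-0.17 to 0.18) and the Cyp2c37 set (-0.33 to 0.02) did so in hCAR/hPXR against WT CITCO, and those of Cyp2c70 (-0.14 to 0.08) between the modified lines. The cause was not tested.

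Over all genes, the calls (35, 20, 22 and 50 in the 4 comparisons, 122 over 4 groups) became 184, 179, 227, 233 and 540 with no filter and 63, 42, 69, 96 and 208 with DESeq2. With a library left out they ranged from 17 to 32, 6 to 54, 5 to 58, 10 to 58 and 60 to 160. In Car KO/hPXR against WT CITCO they were 40 with only the 6 libraries compared and 33 with limma.

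Replicate numbers were shared between groups, and what equal numbers share is not stated. Of 18 same-numbered pairs, 0 deviated together at r over 0.1 (median 0.029, beside -0.010 for other pairs). Yet 9 of 12 libraries correlated best with their own number, although same-numbered libraries are a minority of those in other groups. With the replicate block, edgeR called 3, 0, 2 and 6 of the 10 genes, Cyp2c54 being the one lost between the modified lines (log2 1.23, adjusted p = 0.0521), and 33, 20, 24, 53 and 108 of all genes.

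With 1167027 to 2341572 counts per library, Cyp2c55, Cyp2c53-ps and Cyp2c38 rest on few reads, and differences among the groups where the first 2 are near 0 were not detectable at this depth.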
